A study of Homo sapiens with 6 samples.

Results

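The genes described here are 43 genes of fatty acid metabolism, namely those that make, elongate and desaturate fatty acids, activate them to acyl-CoA, oxidise them in mitochondria, store or release them as triglyceride and take them up, together with the PPAR nuclear receptors and 3 of their targets. They were taken by symbol from a fixed list and matched 43 of the 61533 gene rows of the count table, 1 row each. Of these, 42 had enough counts to be tested, and the fatty acid transporter CD36 did not.

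Fatty acid synthesis starts from citrate, which ACLY cleaves to cytosolic acetyl-CoA. Acetyl-CoA carboxylase turns this into malonyl-CoA, and fatty acid synthase builds palmitate from both. Malonyl-CoA also inhibits CPT1 on the outer mitochondrial membrane, the step that admits long-chain acyl groups to beta-oxidation, so that synthesis and oxidation oppose each other. PPAR alpha, delta and gamma are nuclear receptors that bind fatty acids and derivatives, pair with RXR and activate genes of lipid oxidation and storage. SREBP1, encoded by SREBF1, activates the genes of fatty acid synthesis and desaturation.

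Total RNA, depleted of ribosomal RNA, was sequenced from MDA-MB-231, an established line of human triple-negative breast cancer, in 2 groups of 3 libraries each: cells with a short hairpin RNA against the histone demethylase and Polycomb subunit KDM2B (shKDM2B, labelled as KDM2B knockdown), and cells with an empty vector (labelled WT). The knockdown columns carry a single unexplained hairpin code, and the control is a vector without a hairpin, so a response to KDM2B loss and a response to that hairpin cannot be told apart. Library totals ran from 10437732 to 15737951 counts in shKDM2B and from 10190149 to 13635565 counts in empty vector. KDM2B fell to 14.7 ± 0.183 CPM in shKDM2B cells, against 63.5 ± 5.58 CPM in empty vector cells (SD, n = 3 each), where CPM is the count scaled to the library total and adjusted for library composition by TMM. Mesenchymal markers of this line were present at 6032.7 to 6273.0 summed CPM in shKDM2B libraries and 6204.3 to 6648.6 summed CPM in empty vector libraries (VIM, CD44, AXL, ZEB1, EGFR and CAV1, of which VIM fell 3.2-fold and CAV1 1.27-fold), while ESR1 and PGR stayed under 1 CPM. Of 7 adipocyte markers, LIPE alone passed the low-count filter and FABP4 had 0 counts in every library. The summed level of these 7 was 6.32 to 7.88 CPM in shKDM2B libraries and 6.32 to 7.33 CPM in empty vector libraries. Of 8 macrophage markers, 3 had 0 counts throughout, and their sum was 3.50 to 4.49 CPM in shKDM2B libraries and 0.875 to 1.81 CPM in empty vector libraries, most of it from CSF1R. The 5 endothelial markers summed to 26.4 to 27.9 CPM in shKDM2B libraries and 8.4 to 10.7 CPM in empty vector libraries, most of it from KDR. Mitochondrially encoded genes took 0.196 to 0.476% of counts in shKDM2B libraries and 0.0767 to 0.151% in empty vector libraries. The nuclear noncoding RNA MALAT1 took 0.246 to 0.311% of counts in shKDM2B libraries and 0.0958 to 0.107% in empty vector libraries. The part of these marker and composition shifts in the results below was not tested. In bulk RNA, fewer expressing cells and less RNA per cell cannot be told apart.

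KDM2B binds unmethylated CpG dinucleotides through its CXXC zinc finger. The promoter windows of 3 genes that rose, of 1 gene of a pair whose windows overlap and of 3 genes that fell are therefore shown with each CpG in capitals. Each runs 5′ to 3′ along the gene, from 250 bases before to 50 bases after the annotated start (RefSeq, GRCh38.p14). For ANGPTL4, HADHB and LPIN1 this start lies well inside the GENCODE gene, which begins farther upstream. The starts of CPT1A, SCD and PPARA lie a short way inside theirs.
ANGPTL4 (chr19:8363905-8364204, plus strand): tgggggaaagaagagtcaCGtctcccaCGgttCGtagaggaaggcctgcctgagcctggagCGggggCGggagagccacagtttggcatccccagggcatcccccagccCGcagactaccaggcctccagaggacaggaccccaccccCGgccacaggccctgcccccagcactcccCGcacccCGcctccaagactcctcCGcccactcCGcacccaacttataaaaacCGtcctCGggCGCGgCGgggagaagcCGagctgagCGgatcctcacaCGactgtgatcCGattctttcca
CPT1A (chr11:68844228-68844527, minus strand): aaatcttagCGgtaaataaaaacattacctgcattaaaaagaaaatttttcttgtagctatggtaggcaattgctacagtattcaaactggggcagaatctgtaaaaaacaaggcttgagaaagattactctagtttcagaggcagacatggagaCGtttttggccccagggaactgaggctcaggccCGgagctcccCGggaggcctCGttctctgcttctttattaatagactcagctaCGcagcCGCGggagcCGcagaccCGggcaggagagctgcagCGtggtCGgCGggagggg
PPARA (chr22:46150276-46150575, plus strand): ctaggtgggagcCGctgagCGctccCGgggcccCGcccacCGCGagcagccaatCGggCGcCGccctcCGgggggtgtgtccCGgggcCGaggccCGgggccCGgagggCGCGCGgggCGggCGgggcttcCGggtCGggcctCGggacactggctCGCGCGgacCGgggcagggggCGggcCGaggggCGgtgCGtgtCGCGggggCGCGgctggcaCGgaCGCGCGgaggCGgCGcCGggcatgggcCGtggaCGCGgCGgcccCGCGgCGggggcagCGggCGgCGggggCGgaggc
HADHB (chr2:26244689-26244988, plus strand): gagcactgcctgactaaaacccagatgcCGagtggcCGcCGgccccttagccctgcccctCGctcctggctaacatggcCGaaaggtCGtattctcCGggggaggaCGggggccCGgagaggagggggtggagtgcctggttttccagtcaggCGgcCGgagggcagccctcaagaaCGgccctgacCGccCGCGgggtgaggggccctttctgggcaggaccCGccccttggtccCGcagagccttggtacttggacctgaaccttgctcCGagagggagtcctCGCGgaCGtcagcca
ACACA (chr17:37406787-37407086, minus strand): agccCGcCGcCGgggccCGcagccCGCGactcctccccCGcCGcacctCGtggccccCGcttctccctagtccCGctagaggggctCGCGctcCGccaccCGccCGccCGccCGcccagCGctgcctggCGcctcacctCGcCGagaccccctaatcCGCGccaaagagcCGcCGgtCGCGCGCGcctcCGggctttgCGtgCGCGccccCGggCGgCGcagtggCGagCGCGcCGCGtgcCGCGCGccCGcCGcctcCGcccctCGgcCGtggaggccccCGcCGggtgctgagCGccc
SCD (chr10:100346983-100347282, plus strand): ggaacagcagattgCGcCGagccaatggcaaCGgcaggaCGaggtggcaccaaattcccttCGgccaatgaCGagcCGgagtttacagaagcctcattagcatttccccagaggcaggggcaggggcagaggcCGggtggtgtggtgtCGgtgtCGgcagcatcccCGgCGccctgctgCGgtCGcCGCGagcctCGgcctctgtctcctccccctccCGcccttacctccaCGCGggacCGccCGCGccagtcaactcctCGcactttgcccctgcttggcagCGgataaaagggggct
LPIN1 (chr2:11746382-11746681, plus strand): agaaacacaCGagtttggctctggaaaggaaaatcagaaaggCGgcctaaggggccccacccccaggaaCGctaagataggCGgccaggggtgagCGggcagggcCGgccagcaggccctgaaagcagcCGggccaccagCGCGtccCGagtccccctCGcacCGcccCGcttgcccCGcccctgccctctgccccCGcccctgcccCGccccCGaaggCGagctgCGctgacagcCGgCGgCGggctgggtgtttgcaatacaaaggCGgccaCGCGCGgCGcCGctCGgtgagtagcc

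These windows hold 20 CpGs for ANGPTL4, 13 for CPT1A, 52 for PPARA, 21 for HADHB, 53 for ACACA, 25 for SCD and 29 for LPIN1. A window was found for 38 members, with a median of 26.5 CpGs, against 14.0 over all 35116 promoter windows of the same length. The set of all windows also covers genes that were not tested here, so it is unlike the members. The 17 members with a window that rose had a median of 24.0 CpGs (4 to 52), and the 12 that fell had a median of 29.5 (10 to 53). The ranges of the genes that rose and of those that fell overlapped over most of their length. ACACA, which fell, and PPARA, which rose, hold nearly the same number of CpGs. The core motif of PPAR sites, AGGTCA, searched on both strands, occurred in 4 of 38 member windows (ACSL5, ELOVL6, PNPLA2 and PPARG) and in 13.8% of all windows. The direct repeat of 2 such motifs 1 base apart (DR1), which PPAR and RXR bind, was found in 0 member windows, with up to 1 mismatch allowed, and in 0.336% of all windows. The E-box CACGTG occurred in the windows of ELOVL5 and PLIN2 (7.26% of all windows), and the sterol element TCACNCCAC in that of PNPLA2 (1.13% of all windows). A match here is a run of letters and not a shown binding site.

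Of the 42 tested genes, 19 were higher and 14 lower in shKDM2B cells at an adjusted p under 0.05 (edgeR's quasi-likelihood test, adjusted over 14071 genes), and 9 did not pass the threshold. Over all tested genes 60.9% were called, 30.5% higher and 30.4% lower, so calls in both directions were common in this comparison whatever the gene. The median log2 fold change was 0.05 for the 42 genes and -0.01 for all tested genes. Groups did not overlap for 35 of the 42, against 65.5% of all tested genes. Each of the 6 role groups held calls in both directions. Synthesis and desaturation had 7 lower (ACLY, ACACA, FASN, SCD, ELOVL6, FADS1 and FADS2) and 3 higher (SCD5, ELOVL5 and ELOVL7), and oxidation had 5 higher (CPT1A, CPT2, ACADM, ACADVL and HADHB) and 2 lower (ACADS and ECI2). Called changes of at least 2-fold were seen in 5 genes that rose (ANGPTL4, PDK4, LPL, CPT1A and PPARA) and 2 that fell (LPIN1 and FABP5), which was 16.7% of the 42 genes and 12% of all tested genes.

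**Figure D1:**
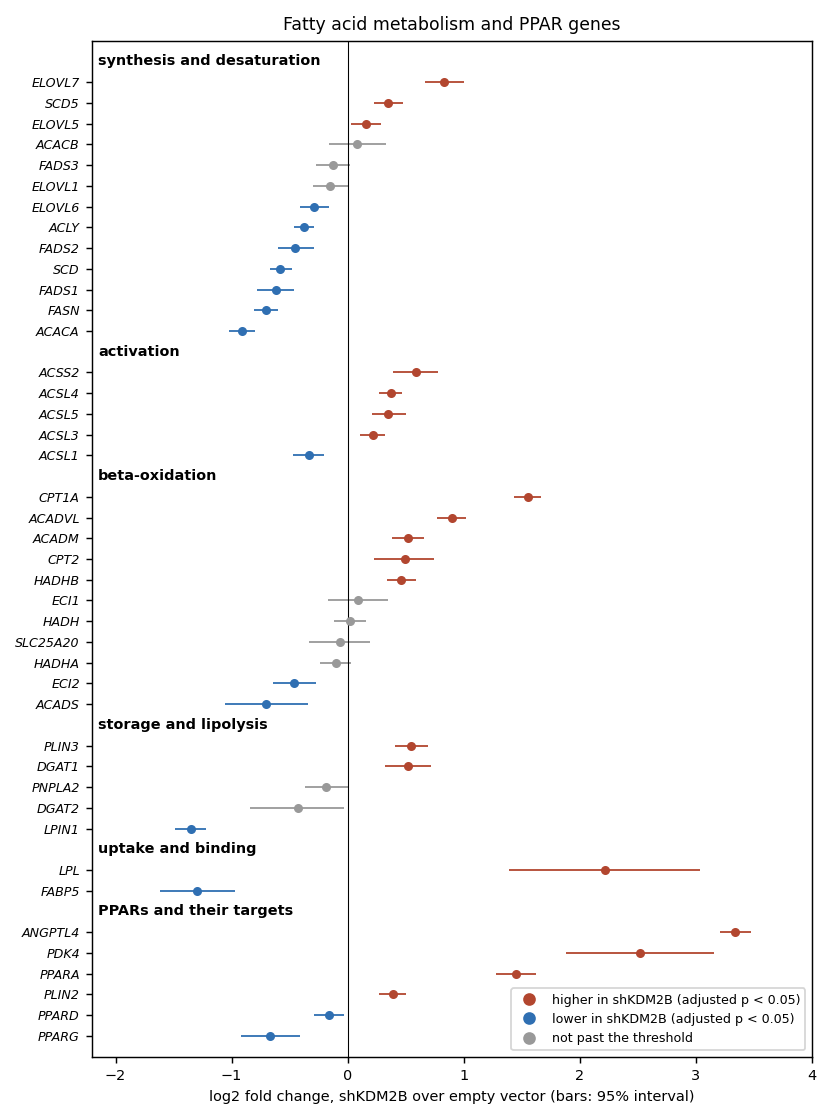
Log2 fold change of shKDM2B over empty vector for the 42 tested genes, grouped by role, with 95% intervals from the edgeR fit (3 libraries a group). ANGPTL4 at 3.34 lies farthest to the right, LPIN1 at -1.35 farthest to the left, and ACLY, ACACA, FASN and SCD lie left of 0.

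Transcripts of ACLY, ACACA and FASN, the core of fatty acid synthesis, were lower in shKDM2B cells, and those of ACACB were not called. FASN, the fatty acid synthase that makes palmitate (ENSG00000169710.9, chromosome 17 from 82078333 to 82098332, minus strand, GRCh38), had 707.7, 680.1 and 719.8 CPM in shKDM2B libraries, against 1117.1, 1231.0 and 1081.0 CPM in empty vector libraries. Its log2 fold change was -0.70 (SE 0.05, adjusted p 2.07e-08). Every shKDM2B library lay well under the lowest empty vector library. ACACA, the cytosolic acetyl-CoA carboxylase (chromosome 17 from 37084988 to 37406818, minus strand), had 114.8, 110.4 and 118.1 CPM in shKDM2B libraries, against 213.0, 223.2 and 210.1 CPM in empty vector libraries. With a log2 fold change of -0.91 (SE 0.05, adjusted p 2.73e-09), it showed the largest decrease of the 13 synthesis and desaturation genes. ACLY, the ATP citrate lyase, averaged 562.1 ± 4.26 CPM in shKDM2B and 729.8 ± 20.0 CPM in empty vector cells (log2 fold change -0.38). ACACB, the carboxylase at the outer mitochondrial membrane, had 13.1, 12.3 and 15.6 CPM in shKDM2B libraries, against 13.5, 12.1 and 13.5 CPM in empty vector libraries. Its groups overlapped, and its log2 fold change of 0.08 had a 95% interval from -0.16 to 0.33. ACACB thus made up 9.67 ± 0.817% of the carboxylase transcripts per kilobase in shKDM2B cells and 5.15 ± 0.450% in empty vector cells.

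Desaturation was split between paralogs. SCD, the main stearoyl-CoA desaturase, which makes monounsaturated fatty acids (chromosome 10 from 100347124 to 100364834, plus strand), had 508.6, 493.0 and 518.0 CPM in shKDM2B libraries, against 771.9, 714.4 and 778.2 CPM in empty vector libraries (log2 fold change -0.58, SE 0.04, adjusted p 6.86e-08). SCD5, a second stearoyl-CoA desaturase, had 64.4, 69.8 and 68.5 CPM in shKDM2B libraries, against 53.5, 53.7 and 51.7 CPM in empty vector libraries. It rose by a log2 fold change of 0.35 (SE 0.06, adjusted p 0.000107). In both genes the groups did not overlap, and they moved in opposite directions. FADS1 and FADS2, the delta-5 and delta-6 desaturases of polyunsaturated fatty acids, lie head to head on chromosome 11 and both fell. FADS1 had 195.5, 192.2 and 197.0 CPM in shKDM2B libraries, against 320.1, 257.6 and 322.4 CPM in empty vector libraries, with a log2 fold change of -0.62. FADS2 averaged 178.4 ± 5.35 CPM in shKDM2B and 243.7 ± 28.4 CPM in empty vector cells, with a log2 fold change of -0.45. Their annotated exons share 490 bases on opposite strands, and without a known strand setting reads there cannot be assigned to either gene. FADS3, a related gene next to them, did not pass the threshold, with 40.5, 43.5 and 44.3 CPM in shKDM2B libraries, against 45.4, 49.4 and 45.8 CPM in empty vector libraries (log2 fold change -0.13, adjusted p 0.114).

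Elongases also went both ways. ELOVL6, which extends palmitate to stearate, fell to 96.8 ± 4.01 CPM in shKDM2B cells, against 117.9 ± 7.0 CPM in empty vector cells (log2 fold change -0.29, adjusted p 0.000681). ELOVL7, an elongase of saturated long-chain acyl-CoAs, had 61.9, 61.1 and 62.1 CPM in shKDM2B libraries, against 35.6, 30.2 and 37.7 CPM in empty vector libraries. It rose 1.78-fold (log2 fold change 0.83, SE 0.08, adjusted p 3.98e-07), the largest increase among the synthesis genes. ELOVL5, which elongates polyunsaturated fatty acids, averaged 274.1 ± 4.52 CPM in shKDM2B and 245.8 ± 22.0 CPM in empty vector cells. Its log2 fold change of 0.16 was past the threshold by little (adjusted p 0.0368). That call was lost when either of empty vector replicates 1 and 2 or any shKDM2B library was left out, with upper-quartile scaling (adjusted p 0.0511), without a filter (adjusted p 0.112) and with DESeq2 (adjusted p 0.0768). ELOVL1, which extends saturated very long chains, averaged 128.4 ± 7.11 CPM in shKDM2B and 142.7 ± 13.7 CPM in empty vector cells and did not pass the threshold (log2 fold change -0.15, adjusted p 0.0713). Without empty vector replicate 2, the lowest of its group at 127.3 CPM, ELOVL1 was called lower (log2 fold change -0.23, adjusted p 2.45e-05), and it also passed without shKDM2B replicate 3 (adjusted p 0.0498), with the replicate block (adjusted p 0.0425) and without a filter (adjusted p 0.0193). Of the 13 genes of synthesis and desaturation, 7 were lower, 3 were higher and 3 were called in neither direction. Over all tested genes 30.4% were called lower and 30.5% higher. The median log2 fold change of the 13 genes was -0.29. Their summed level was 2901.7 to 2999.0 CPM in shKDM2B libraries and 3949.9 to 4105.1 CPM in empty vector libraries.

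Of the 5 genes that make acyl-CoA or acetyl-CoA from free acids, 4 were higher, against 30.5% of all tested genes. ACSL4, an acyl-CoA synthetase that prefers arachidonate and other polyunsaturated acids (chromosome X from 109624244 to 109733403, minus strand), had 400.9, 378.0 and 402.2 CPM in shKDM2B libraries, against 297.4, 307.7 and 309.5 CPM in empty vector libraries (log2 fold change 0.37, SE 0.05, adjusted p 8.59e-06). ACSS2, which makes acetyl-CoA from acetate, had 44.0, 43.3 and 44.9 CPM in shKDM2B libraries, against 25.4, 34.3 and 28.6 CPM in empty vector libraries. It rose 1.5-fold (log2 fold change 0.59, adjusted p 8.24e-05), while ACLY, the other cytosolic source of acetyl-CoA, fell. ACSL3, an acyl-CoA synthetase of the endoplasmic reticulum and lipid droplets, rose by 0.22 on the log2 scale, and ACSL5, a mitochondrial and reticular one, by 0.35. Annotated exons of ACSL5 share 144 bases with those of the counted neighbour ZDHHC6 on the other strand. ACSL1 fell, at 56.9 ± 3.33 CPM in shKDM2B and 71.5 ± 3.52 CPM in empty vector cells without overlap (log2 fold change -0.33, adjusted p 0.000364). Per kilobase of exon, ACSL4 was the most abundant of the 4 synthetases, with 57.4 ± 0.761% of their sum in shKDM2B and 53.1 ± 0.867% in empty vector cells. The share of ACSL1 was 8.47 ± 0.443% in shKDM2B and 12.7 ± 0.541% in empty vector cells.

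**Figure D2:**
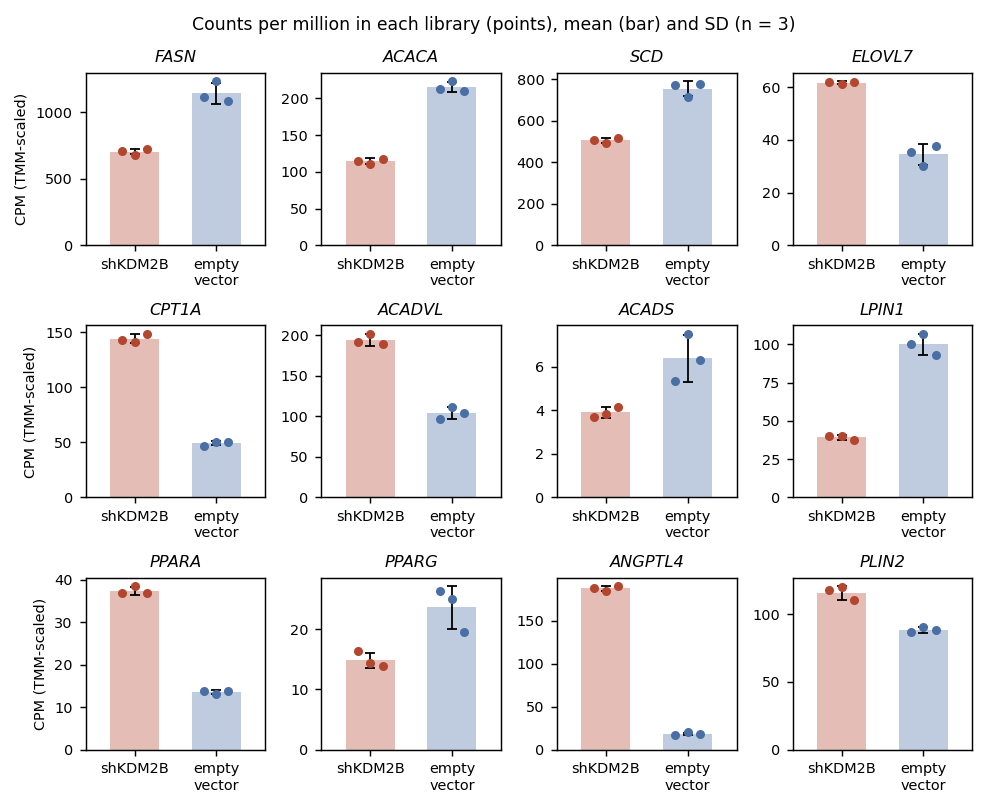
TMM-scaled CPM of 12 of the genes in each library, shKDM2B left and empty vector right (points are libraries, bars means, whiskers SD, n = 3). The 12 were picked from genes that were called, and in all 12 panels the points of the groups do not overlap. Groups did not overlap for 65.5% of all tested genes. ANGPTL4 lies at 184.2 to 189.8 CPM in shKDM2B and 17.1 to 20.0 CPM in empty vector libraries.

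Of the 3 genes that carry long-chain acyl groups into mitochondria, transcripts of both carnitine palmitoyltransferases were higher and those of the carrier between them were not called. CPT1A, the carnitine palmitoyltransferase of the outer membrane (ENSG00000110090.13, chromosome 11 from 68754620 to 68844410, minus strand), had 142.9, 141.3 and 148.9 CPM in shKDM2B libraries, against 47.2, 50.7 and 50.0 CPM in empty vector libraries. It rose 2.93-fold (log2 fold change 1.55, SE 0.05, adjusted p 2.87e-11), which placed it 411th from the top of the 14071 tested genes. CPT2, the inner-membrane transferase, had 10.0, 9.72 and 10.2 CPM in shKDM2B libraries, against 7.10, 6.95 and 7.31 CPM in empty vector libraries (log2 fold change 0.49, adjusted p 0.00267). SLC25A20, the carrier that exchanges acylcarnitine for carnitine between them, had 15.6, 14.8 and 13.9 CPM in shKDM2B libraries, against 12.4, 17.1 and 16.5 CPM in empty vector libraries. Its groups overlapped, and its log2 fold change of -0.07 had a 95% interval from -0.33 to 0.19, so the carrier did not show a rise as large as that of either transferase. Annotated exons of CPT2, ACADM and ACADVL share 99, 157 and 85 bases with the counted neighbours CZIB, RABGGTB and DLG4.

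Of the acyl-CoA dehydrogenases, which start each round of oxidation, 2 listed genes rose and 1 fell. ACADVL, which acts on very long chains, had 191.5, 202.1 and 189.2 CPM in shKDM2B libraries, against 97.2, 111.3 and 104.3 CPM in empty vector libraries (log2 fold change 0.90, SE 0.06, adjusted p 1.12e-08). ACADM, for medium chains, had 81.7, 84.8 and 76.4 CPM in shKDM2B libraries, against 57.3, 51.7 and 60.0 CPM in empty vector libraries (log2 fold change 0.52, SE 0.07, adjusted p 9.52e-06). ACADS, for short chains, had 3.69, 3.85 and 4.17 CPM in shKDM2B libraries, against 5.35, 7.52 and 6.30 CPM in empty vector libraries, a log2 fold change of -0.70 (adjusted p 0.00242). ACADS was the least abundant of the 3. ACADL and ACAD9, long-chain enzymes of the further lists, were called in neither direction, and both are named here with their values already seen. ACADL averaged 1.03 ± 0.227 CPM in shKDM2B and 1.49 ± 0.32 CPM in empty vector cells (log2 fold change -0.49, adjusted p 0.184). ACAD9 averaged 75.7 ± 1.68 CPM in shKDM2B and 72.6 ± 8.15 CPM in empty vector cells (log2 fold change 0.06, adjusted p 0.466), and no order by chain length is read from these genes. ACADS was the 1 gene of the 43 whose annotated 3′ UTR holds the hexamer CGACAC, found in 4.21% of tested genes with an annotated 3′ UTR. Over genes with that hexamer the median log2 fold change was -0.25, over genes without it 0.01. Genes with it went both ways, as GPAM of the further lists rose (log2 fold change 1.33) and the marker VIM fell (-1.68). The genes with and without it were not matched for 3′ UTR length or CpG content, and its part in the ACADS result was not tested.

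The later steps of oxidation were mixed. HADHA and HADHB encode the alpha and beta subunits of the mitochondrial trifunctional protein and are divergently transcribed on chromosome 2, so that 194 bases of their promoter windows are shared. HADHB had 153.2, 158.6 and 157.9 CPM in shKDM2B libraries, against 109.3, 122.3 and 109.1 CPM in empty vector libraries, and rose by 0.46 on the log2 scale (SE 0.06, adjusted p 6.60e-06). HADHA had 192.8, 182.9 and 196.3 CPM in shKDM2B libraries, against 196.5, 225.2 and 193.2 CPM in empty vector libraries. Its groups overlapped (log2 fold change -0.10, 95% interval -0.24 to 0.03), and this interval lay below that of HADHB (0.34 to 0.59). HADH, the dehydrogenase of medium and short chains, averaged 57.2 ± 2.05 CPM in shKDM2B and 56.4 ± 4.14 CPM in empty vector cells (log2 fold change 0.02, adjusted p 0.808). Of the enoyl-CoA isomerases for unsaturated chains, ECI2 fell to 21.3 ± 0.304 CPM in shKDM2B cells, against 29.4 ± 2.45 CPM in empty vector cells (log2 fold change -0.46, adjusted p 0.000345). ECI1 averaged 24.9 ± 0.141 CPM in shKDM2B and 23.4 ± 5.01 CPM in empty vector cells, with overlapping groups (log2 fold change 0.09, adjusted p 0.539), and was called higher without empty vector replicate 2, the highest of its group at 28.6 CPM (adjusted p 0.0289). Among the 11 oxidation genes, 5 were higher, 2 lower and 4 called in neither direction. Over all tested genes 30.5% were called higher and 30.4% lower. The median log2 fold change of the 11 genes was 0.09. Their summed level was 897.0 to 901.6 CPM in shKDM2B libraries and 634.1 to 714.4 CPM in empty vector libraries.

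The genes of triglyceride storage held 1 large decrease. LPIN1, the phosphatidate phosphatase lipin 1, which makes diacylglycerol and in the nucleus acts as a coactivator of PPAR alpha (ENSG00000134324.12, chromosome 2 from 11677595 to 11827409, plus strand), had 40.2, 40.0 and 37.4 CPM in shKDM2B libraries, against 100.4, 106.9 and 93.0 CPM in empty vector libraries. It fell 2.56-fold (log2 fold change -1.35, SE 0.06, adjusted p 5.34e-10), the largest decrease of the 42 genes and 301st from the bottom of all tested genes. DGAT1, which adds the last acyl group to triglyceride, had 25.2, 26.9 and 27.9 CPM in shKDM2B libraries, against 17.4, 17.4 and 20.8 CPM in empty vector libraries (log2 fold change 0.52, SE 0.09, adjusted p 0.000264). Its exons share 139 bases with those of HSF1 on the other strand. DGAT2, an unrelated enzyme with the same activity, was low at 3.21, 2.63 and 3.26 CPM in shKDM2B libraries, against 4.77, 3.62 and 3.98 CPM in empty vector libraries, and did not pass the threshold (log2 fold change -0.43, adjusted p 0.0609), though it was called lower without empty vector replicate 2 (adjusted p 0.0365). PLIN3, a lipid droplet coat protein, rose to 243.3 ± 11.1 CPM in shKDM2B cells, against 166.5 ± 15.1 CPM in empty vector cells (log2 fold change 0.55, adjusted p 4.36e-06). PNPLA2, the adipose triglyceride lipase that begins lipolysis, averaged 47.7 ± 2.69 CPM in shKDM2B and 54.3 ± 7.38 CPM in empty vector cells, with overlapping groups (log2 fold change -0.19, adjusted p 0.0767), and was called lower without empty vector replicate 1 (adjusted p 0.0108) or without a filter (adjusted p 0.00691).

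The 3 genes of uptake and binding were low in both groups, with FABP5 the highest. FABP5, a cytosolic fatty acid binding protein, had 4.18, 3.94 and 3.91 CPM in shKDM2B libraries, against 10.8, 10.6 and 8.40 CPM in empty vector libraries. It fell 2.46-fold (log2 fold change -1.30, SE 0.15, adjusted p 4.48e-06), and the highest shKDM2B library lay well under the lowest empty vector library. FABP5 has 16 named pseudogenes in the table, which together held 87 counts beside its own 486, so part of its reads may lie elsewhere. LPL, the lipoprotein lipase that frees fatty acids from lipoproteins, had 15, 25 and 26 counts in shKDM2B libraries, against 2, 4 and 7 counts in empty vector libraries. Its fitted log2 fold change of 2.22 (SE 0.38, 95% interval 1.39 to 3.04, adjusted p 0.000178) rests on those few counts, at a mean of 1.78 CPM in shKDM2B and 0.361 CPM in empty vector cells. CD36 had 0 counts in each shKDM2B library, against 1, 2 and 2 counts in the empty vector libraries, all under the 3 counts that a count of 0 allows, so no fold is given.

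The receptors moved in different directions. PPARA, which drives fatty acid oxidation in liver and muscle (ENSG00000186951.17, chromosome 22 from 46150521 to 46243756, plus strand), had 36.8, 38.6 and 36.8 CPM in shKDM2B libraries, against 13.9, 13.1 and 13.9 CPM in empty vector libraries. It rose 2.73-fold (log2 fold change 1.45, SE 0.08, adjusted p 2.48e-09). PPARG, the receptor of fat cell differentiation, had 16.3, 14.3 and 13.9 CPM in shKDM2B libraries, against 26.3, 25.0 and 19.6 CPM in empty vector libraries, and fell 1.59-fold (log2 fold change -0.67, SE 0.12, adjusted p 0.000228). Neither gene had overlapping groups. PPARD, the widely expressed receptor, averaged 62.2 ± 0.888 CPM in shKDM2B and 69.4 ± 4.81 CPM in empty vector cells. Its log2 fold change of -0.16 was past the threshold by little (adjusted p 0.0324) and was not called with the replicate block (adjusted p 0.0566), with DESeq2 (adjusted p 0.0966) or without any 1 library other than empty vector replicate 2. Per kilobase of exon, PPARD was the most abundant receptor, at 69.6 ± 0.844% of the sum of the 3 in shKDM2B and 71.4 ± 3.40% in empty vector cells. PPARA made up 14.1 ± 0.402% in shKDM2B and 4.74 ± 0.135% in empty vector cells, and PPARG 16.3 ± 1.22% in shKDM2B and 23.9 ± 3.48% in empty vector cells. With the longest annotated transcript as length, PPARG made up 26.5 ± 1.74% in shKDM2B and 37.0 ± 4.52% in empty vector cells, and PPARA 13.6 ± 0.503% in shKDM2B and 4.36 ± 0.213% in empty vector cells, so the level of PPARG against the other receptors depends on the length used.

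All 3 listed PPAR targets were higher, where 30.5% of all tested genes were called higher. UCP2, a PPAR target of the further lists, fell (log2 fold change -0.79). ANGPTL4, a secreted inhibitor of lipoprotein lipase that hypoxia also induces (ENSG00000167772.12, chromosome 19 from 8363289 to 8374373, plus strand), had 188.4, 184.2 and 189.8 CPM in shKDM2B libraries, against 17.1, 20.0 and 18.2 CPM in empty vector libraries. It rose 10.2-fold (log2 fold change 3.34, SE 0.06, adjusted p 2.28e-13) and ranked 33rd from the top of all tested genes. PDK4, the kinase that shuts off pyruvate dehydrogenase when fat is burned, had 32, 35 and 45 counts in shKDM2B libraries, against 6, 3 and 9 counts in empty vector libraries. Its fitted log2 fold change was 2.52 (SE 0.30, 95% interval 1.88 to 3.16, adjusted p 5.39e-06) at a level of 3.04 ± 0.0940 CPM in shKDM2B and 0.507 ± 0.195 CPM in empty vector cells. PLIN2, a lipid droplet coat protein, had 117.5, 119.9 and 110.2 CPM in shKDM2B libraries, against 86.7, 90.7 and 88.0 CPM in empty vector libraries (log2 fold change 0.39, SE 0.05, adjusted p 2.19e-05). The increases of the 3 targets thus ran from 1.31-fold for PLIN2 to 10.2-fold for ANGPTL4.

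Compared per kilobase of exon, the order of the genes also shifted. SCD, ACLY and FASN were the 3 most abundant in empty vector cells, at 140.8 ± 6.56, 139.9 ± 3.83 and 122.1 ± 8.36 CPM per kb, where SCD and ACLY did not differ beyond their spread. In shKDM2B cells, ACLY led at 107.7 ± 0.816 CPM per kb, followed by SCD at 94.5 ± 2.35 and PLIN3 at 86.5 ± 3.95. ANGPTL4 was 4th at 75.5 ± 1.19 CPM per kb, level with FASN at 75.0 ± 2.17, while in empty vector cells it was 28th at 7.44 ± 0.586 CPM per kb. CPT1A stood 14th in shKDM2B cells (22.0 ± 0.610 CPM per kb) and 26th in empty vector cells (7.51 ± 0.284 CPM per kb). These levels depend on the length assigned to each gene, and with the longest annotated transcript in place of all exons PLIN3 was 2nd, ANGPTL4 3rd and SCD 4th in shKDM2B cells.

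**Figure D3:**
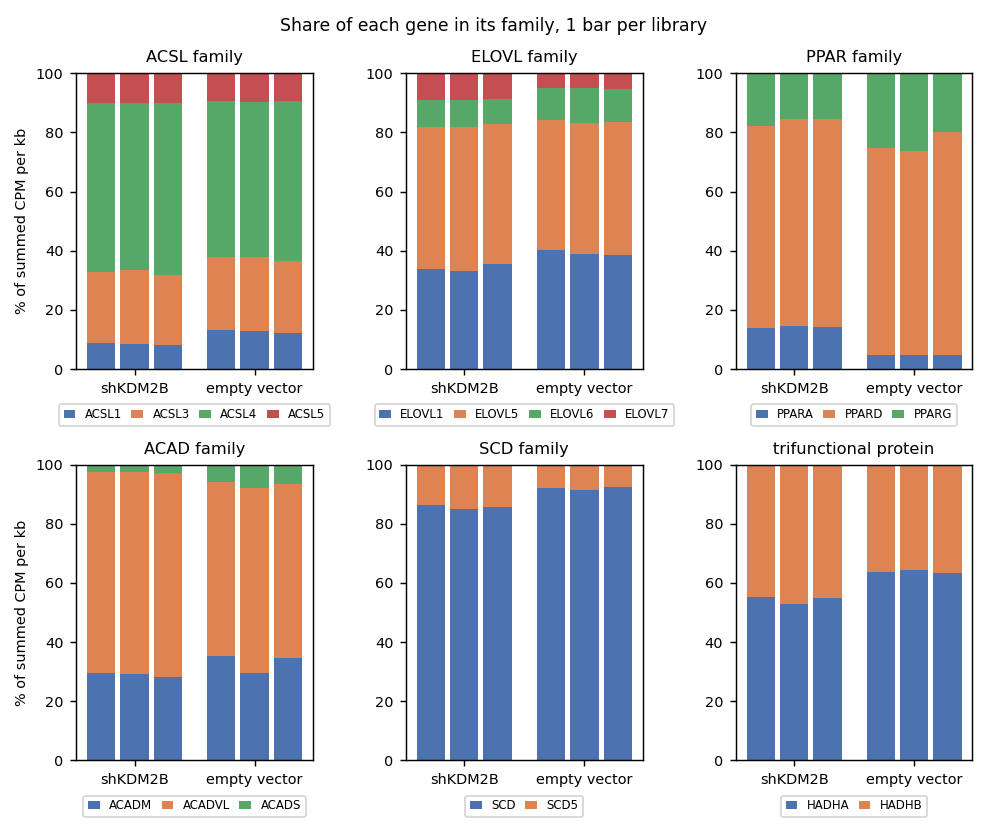
Share of each gene in the summed CPM per kb of exon of its family, 1 bar per library, shKDM2B left and empty vector right. PPARA takes 14.1% of the receptor sum in shKDM2B and 4.74% in empty vector cells, SCD5 takes 14.3% and 8.07%, and HADHB takes 45.7% and 36.2% of the trifunctional protein sum.

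Further genes of the same pathways, 162 in 8 lists, were counted in the same fit. Of the 122 tested, 45 were higher, 29 lower and 48 called in neither direction, and the median log2 fold change was 0.12. Over all tested genes 60.9% were called, 30.5% higher and 30.4% lower, and the counts of each list below stand beside these shares. Among 12 tested regulators of lipid synthesis, 5 were higher and 3 lower. SREBF1 itself had 57.7, 56.3 and 58.8 CPM in shKDM2B libraries, against 51.0, 71.3 and 56.5 CPM in empty vector libraries, with overlapping groups (log2 fold change -0.05, adjusted p 0.703). INSIG1 and INSIG2, which hold the SREBP precursors in the endoplasmic reticulum, rose by 0.68 and 0.53 on the log2 scale. NR1H2, the LXR beta receptor, rose by 0.70. MLXIP, the glucose-responsive factor MondoA, fell by 0.79, MID1IP1, an activator of acetyl-CoA carboxylase, by 0.50, and the protease MBTPS1, which cleaves SREBP, by 0.27. ATF4 and MYC, the other regulators named in the series title, fell 3.41-fold and 1.84-fold.

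Other synthesis and elongation genes had 3 of 12 higher and 4 lower. HSD17B12, the ketoacyl-CoA reductase of the elongation cycle, fell to 45.1 ± 2.27 CPM in shKDM2B cells, against 124.2 ± 7.64 CPM in empty vector cells (log2 fold change -1.46, adjusted p 1.70e-10). SLC25A1, the citrate carrier that supplies ACLY, and MECR, the reductase of mitochondrial fatty acid synthesis, fell by 0.48 and 0.46 on the log2 scale. HACD2, TECR and HACD3, of the dehydratase and reductase steps of elongation, rose by 0.43, 0.32 and 0.17, and the call of HACD3 was lost without shKDM2B replicate 3 (adjusted p 0.0519) or without a filter (adjusted p 0.0776). Of 18 other activation and acyl-CoA genes, 7 were higher and 1 lower. The transport protein SLC27A1, the acyl-CoA synthetase ACSF2 and the acyl-CoA binding protein ACBD5 had log2 fold changes of 0.77, 0.75 and 0.42. ACOT7, an acyl-CoA thioesterase, fell by 0.37.

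Beyond the listed oxidation enzymes, 6 of 17 other mitochondrial genes were higher and 2 lower. CRAT, the carnitine acetyltransferase, had a log2 fold change of 0.94, the thiolase ACAA2 of 0.79 and SLC22A5, the carnitine importer OCTN2, of 0.78. DECR1, which handles double bonds in unsaturated chains, and ACADSB, for branched short chains, fell by 0.71 and 0.61. Peroxisomal oxidation genes were split, with 4 of 16 higher and 4 lower. EHHADH and HSD17B4, the bifunctional enzymes of that route, fell by 0.46 and 0.32. The calls of DECR2 (0.66) and ABCD4 (-0.17) were near the threshold, with adjusted p of 0.0422 and 0.0459. Both were lost with DESeq2 and with the replicate block. They were also lost without shKDM2B replicate 1 or 2 or empty vector replicate 3. The log2 fold change of DECR2 was 0.43 without shKDM2B replicate 1 and 0.43 without empty vector replicate 1. Leaving out empty vector replicate 1 ended the call of DECR2 alone, and leaving out empty vector replicate 2 or shKDM2B replicate 3 that of ABCD4 alone.

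**Figure D4:**
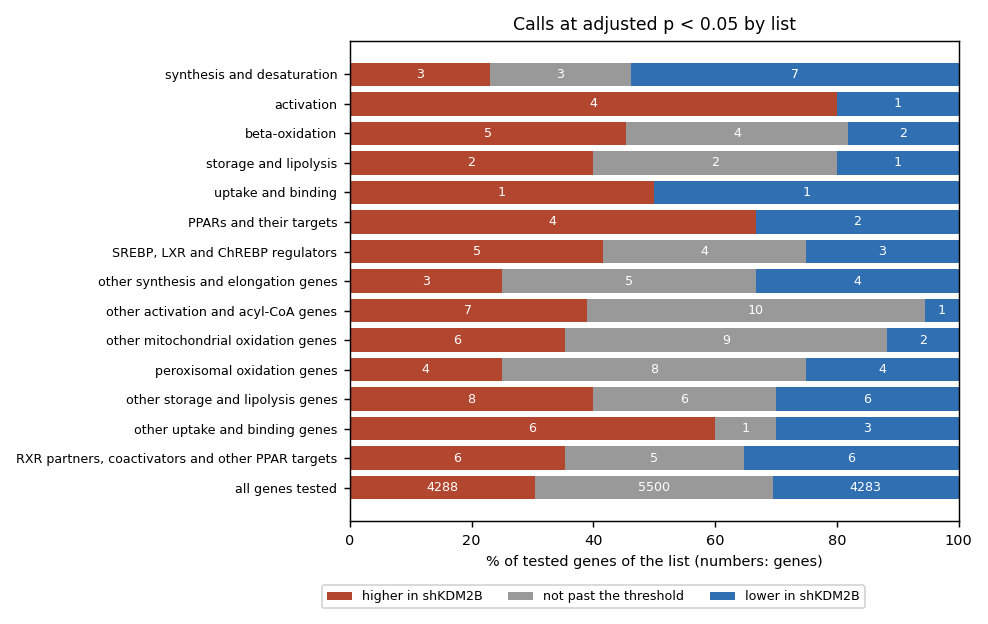
Percentage of tested genes called higher in shKDM2B, not past the threshold or called lower, for the 6 role groups, 8 further lists and all 14071 tested genes, with gene numbers in the bars. Synthesis and desaturation has 7 of 13 lower, against 30.4% of all tested genes, and activation 4 of 5 higher, against 30.5% of all tested genes.

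The remaining lists held several larger changes. Of 20 other storage and lipolysis genes, 8 were higher and 6 lower. GPAM, the mitochondrial glycerol-phosphate acyltransferase that starts triglyceride synthesis, rose to 101.7 ± 3.22 CPM in shKDM2B cells, against 40.2 ± 3.86 CPM in empty vector cells (log2 fold change 1.33, adjusted p 9.89e-10). GPAT3, which carries out the same step in the endoplasmic reticulum, rose by 0.98 on the log2 scale, and AGPAT5, of the following step, by 0.33. AGPAT1, also of that step, fell 3.73-fold (log2 fold change -1.90). G0S2, an inhibitor of the lipase PNPLA2, fell to 4.77 ± 0.617 CPM in shKDM2B cells, against 26.5 ± 4.6 CPM in empty vector cells, a log2 fold change of -2.49 (adjusted p 4.76e-09). HILPDA, another inhibitor of that lipase, fell by 0.74. Of 10 other uptake and binding genes, 6 were higher and 3 lower, with the endothelial lipase LIPG at 0.88, the lysosomal membrane protein SCARB2 at 0.71 and the lipoprotein receptor VLDLR at 0.46, while CAV1 and SCARB1 fell by 0.35 and 0.31.

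Among 17 tested PPAR partners, coregulators and further targets, 6 were higher and 6 lower. RXRA, the main partner of the PPARs, rose 2.27-fold to 57.7 ± 0.763 CPM in shKDM2B cells, against 25.3 ± 1.58 CPM in empty vector cells (adjusted p 4.44e-09). The coactivator NCOA3 rose 2.16-fold and KLF10 1.84-fold, while UCP2, a mitochondrial carrier and PPAR target, fell 1.72-fold and PPRC1, a coactivator related to PGC-1, 1.68-fold. PPARGC1A, which encodes the coactivator PGC-1 alpha and was chosen after its values were seen, had 6.72 ± 0.219 CPM in shKDM2B and 2.99 ± 0.424 CPM in empty vector cells (log2 fold change 1.15, adjusted p 3.01e-05). The PPAR targets CYP4A11, FGF21, CREB3L3 and ADIPOQ had too few counts to be tested.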

How the data were processed

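The deposited table holds raw read counts per gene for 6 libraries, with versioned Ensembl identifiers. The submitters' processing notes name STAR, featureCounts, Trim Galore, limma, edgeR and DESeq2, on GRCh38. Not given in the sources used here are their versions, strand setting, annotation release and the handling of multi-mapping reads. Columns were matched to samples by name, those with sh to shKDM2B, the only hairpin group. A table of gene names held 61415 of 61533 rows, and coordinates, exon lengths and 3′ UTRs (of the transcript with the longest coding part) came from GENCODE release 29.

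Low genes were removed by filterByExpr at a minimum count of 10 and a total of 15, and counts were scaled by TMM and tested with edgeR 4.0.16 in R 4.3.3 (robust quasi-likelihood, two-sided, Benjamini-Hochberg over 14071 genes). Fold changes are shKDM2B over empty vector. The F statistic and the fold change give the SE. Alternatives used DESeq2 1.42.0 and limma 3.58.1. The labels call replicates biological without naming separate cultures, so p-values reflect library spread that may be technical alone. Libraries of a group all differed by more than counting noise (chi-square divided by its degrees of freedom, 2.00 to 10.2). A count of 0 allows 3 counts, or 0.191 to 0.294 CPM, which covers counting error only. In 3 simulations of 13853 to 13866 genes, each with 200 genes changed, 24.7% of 1.25-fold, 66.0% of 1.5-fold and 88.0% of 2-fold changes were found, with 5.28% of the calls false. Far more genes were called in the data than were changed there, so these rates may not hold for this comparison.

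The genes and lists were chosen with earlier results of these data known. From each further list, up to 3 called genes in each direction with a mean of at least 5 CPM are named, by size of change. Some genes that this rule selects are not reported here.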

Additional observations from a re-analysis of the deposited data

How the results depend on the processing

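Of the 42 genes with a fold change, 34 kept their direction and their side of the threshold under all 13 alternatives (other scaling, filters and tests, a replicate block and leaving out each library). The genes called among the 42 numbered 18 or 19 higher and 13 to 16 lower, and the calls over all genes 3798 to 4546 higher and 3768 to 4582 lower when 1 library was left out. No scaling moved the median of all tested genes by 0.1 on the log2 scale. Each scaling takes most genes as unchanged, so a stable median cannot tell whether that holds where 60.9% of genes were called. The replicate numbers showed little sign of pairing the samples (correlations of same-numbered deviations 0.118, -0.0258 and 0.0751), though so few libraries cannot exclude it. With the replicate block 8479 genes were called in place of 8571. Of the PPARs and their targets, the lower calls numbered 1 with the replicate block and 1 with DESeq2 in place of 2, since PPARD was not called, and 1 to 2 when a library was left out. Lower calls among storage genes numbered 2 without a filter, where PNPLA2 was added, and 1 to 2 when a library was left out, in place of 1; PNPLA2 was added without empty vector replicate 1 and DGAT2 without empty vector replicate 2. Directions that turned were of genes not called. ACACB ranged from -0.04 to 0.16, HADH from -0.02 to 0.07, ECI1 from -0.05 to 0.24 and SREBF1 from -0.15 to 0.09 when a library was left out, and HADH was -0.01 without a filter; the cause was not tested. Chosen after the data were seen, leaving out the 7 genes that share exon bases with a gene of at least 100 counts left 14 higher and 12 lower, and leaving out ACADS, for its hexamer, left 19 and 13. Genes with few counts, such as LPL, PDK4 and CD36, are limited by depth.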

Other observations

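Ratios of gene pairs within each library, per kilobase of exon, were computed after the values were seen and are given as values only. HADHB over HADHA was 0.814, 0.888 and 0.824 in shKDM2B libraries, against 0.570, 0.556 and 0.579 in empty vector libraries, for 2 subunits of 1 complex whose RefSeq promoter windows overlap. CPT1A over ACACA was 2.47, 2.54 and 2.50 in shKDM2B libraries, against 0.439, 0.450 and 0.472 in empty vector libraries, so that the oxidation gene was the more abundant per kilobase in shKDM2B cells and the synthesis gene in empty vector cells. SCD5 over SCD was 0.158, 0.177 and 0.165 in shKDM2B libraries, against 0.0866, 0.0939 and 0.0830 in empty vector libraries. PPARA over PPARG was 0.772, 0.928 and 0.910 in shKDM2B libraries, against 0.182, 0.181 and 0.244 in empty vector libraries. In each pair every shKDM2B library lay above every empty vector library. The pairs were picked from genes already seen to differ in their change, so this separation largely follows from the choice.

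G0S2 and HILPDA, both inhibitors of the lipase PNPLA2, were lower in shKDM2B cells while PNPLA2 itself did not pass the threshold, and of the 2 AGPAT genes named, AGPAT1 fell and AGPAT5 rose. MLXIP, LPIN1, FABP5 and G0S2 fell in the same cells in which CPT1A, GPAM, PPARA and ANGPTL4 rose, and no test links these changes.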
